A study of Homo sapiens with 6 samples.

Results

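The MYC, MAX and MXD network was examined as 10 genes, each found once by symbol among the 31785 rows of the deposited expression table: the growth-promoting transcription factors MYC, MYCN and MYCL, their partner MAX, the competing repressors MXD1, MXD3, MXD4, MXI1 and MNT, and the MAX-like protein MLX. Their mRNA was counted in RNA-seq libraries of D283 Med cells, an established line from a childhood medulloblastoma, a malignant tumour of the cerebellum. WT cells gave 3 libraries, and cells labelled as having Musashi-1, an RNA-binding protein of neural progenitors encoded by MSI1, knocked down gave another 3. All were grown in the same serum-containing medium. The sources used here state neither the method of knockdown, nor a control construct in WT cells, nor whether replicate libraries are separate cultures, so p-values measure only the spread between these libraries, which may be technical. The WT columns of the table were identified by elimination, because their heading is not explained by the labels.

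MYC proteins bind DNA as a pair with MAX, at the E-box CACGTG, and recruit acetyltransferases and elongation factors that raise transcription of growth genes. MXD proteins and MNT take MAX in place of MYC, bind the same E-box and bring SIN3 corepressors and histone deacetylases. MLX pairs with some of these repressors and with the glucose-sensing Mondo proteins, and so joins the network to metabolism. In medulloblastoma, high MYC is a mark of Group 3 tumours, while MYCN gains occur mainly in hedgehog-driven and Group 4 tumours.

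The E-box on which all these dimers act also occurs at the starts of some of the members' own genes. RefSeq promoters on GRCh38.p14 (300 bases, from 250 before to 50 after a gene's start) were examined for 9 of the 10 members, with 12 start sites. The hexamer CACGTG reads the same on both strands. It was in 1 promoter each of MXD4, MNT and MLX, and in none of those of MYCN, MYCL, MAX, MXD1, MXD3 or MXI1, while 7.26% of all 35116 promoters hold it. The promoter of MYC was not among those examined, so nothing is said here of its letters. The 3 promoters are printed 5′ to 3′ on the gene's strand with the E-box in capitals, because they are the places where the network's binding sequence lies at the start of its own repressor and MLX genes. That of MXD4 (chr4:2262060-2262359, minus strand) has the hexamer starting 238 bases before the gene's start, that of MNT (chr17:2401011-2401310, minus strand) 193 bases before, and that of MLX (chr17:42566850-42567149, plus strand) 50 bases before.
MXD4: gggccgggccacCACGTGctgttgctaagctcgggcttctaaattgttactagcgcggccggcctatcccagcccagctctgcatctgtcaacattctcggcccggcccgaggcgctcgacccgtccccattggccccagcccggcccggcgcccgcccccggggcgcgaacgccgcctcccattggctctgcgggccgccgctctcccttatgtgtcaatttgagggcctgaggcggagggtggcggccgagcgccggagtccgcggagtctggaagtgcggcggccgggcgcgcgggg
MNT: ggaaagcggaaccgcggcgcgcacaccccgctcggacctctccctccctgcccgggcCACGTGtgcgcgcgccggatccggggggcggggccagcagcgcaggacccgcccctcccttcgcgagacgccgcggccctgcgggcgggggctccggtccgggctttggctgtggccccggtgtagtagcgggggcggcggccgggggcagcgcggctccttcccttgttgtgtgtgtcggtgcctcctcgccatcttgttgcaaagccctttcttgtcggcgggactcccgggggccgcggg
MLX: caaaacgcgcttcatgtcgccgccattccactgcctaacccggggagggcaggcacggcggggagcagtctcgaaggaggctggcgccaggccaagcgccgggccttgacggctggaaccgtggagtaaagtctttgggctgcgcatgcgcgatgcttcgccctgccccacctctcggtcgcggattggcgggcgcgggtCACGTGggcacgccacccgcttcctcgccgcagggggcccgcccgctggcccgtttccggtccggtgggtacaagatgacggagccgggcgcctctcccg
No binding was measured, so a match describes these letters and nothing more.

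The libraries, as recovered from the deposited values, held 17299671 to 38790342 reads in WT and 18895997 to 24442276 in knockdown. Levels are given as normalised reads, that is reads scaled to a common library size, with the deposited transformation undone. MSI1 mRNA averaged 1512 ± 116 normalised reads over the WT and 1288 ± 94.3 over the knockdown libraries (SD, n = 3 each), and its difference of −0.21 (SE 0.12, limma adjusted p = 0.304) on the log2 scale missed the threshold, so groups are named here by their labels. Of 13 markers of Group 3 and 4 medulloblastoma 12 were in the table and 8 were abundant enough to test. Of these 1 rose and none fell, beside 1.78% and 2.32% of all tested genes. The rise was that of ZIC2, a zinc finger factor of cerebellar progenitors, with 17.6, 35.9 and 13.8 normalised reads in WT 1 to 3, against 75.9, 85.5 and 77.3 in knockdown 1 to 3. Its WT mean of 22.4 lay below the filter level of 27.6 normalised reads, so ZIC2 was tested only because of its knockdown values. Every knockdown library was above every WT library (0.76, SE 0.14, limma adjusted p = 0.0230), and the call was lost without knockdown 1, 2 or 3 (adjusted p = 0.0873, 0.0788 and 0.0755). OTX2, a homeobox factor of these tumours, ranged from 19886 to 26228 normalised reads in WT and from 27356 to 34344 in knockdown without passing (limma, adjusted p = 0.229), while LMX1A, BARHL1, PAX6 and EOMES were at 19.6 or fewer in every library. The library WT 3 stood apart in this list, with 3216 normalised reads of IMPG2 against 7881 to 14226 in the other 5 and 974 of NEUROD1 against 2581 to 3589. Summed immune markers were between 10.2 and 30.7 and astrocyte markers between 4.05 and 11.3 normalised reads in every library, so both were near 0. Summed epithelial markers were at 4480 to 12073, nearly all of it from the keratin KRT8 (4434 to 11989). The others of the 5 epithelial markers added little, and 2 of the 5 were abundant enough to test. Summed fibroblast markers were at 2201 to 2790 and endothelial markers at 160 to 313.

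No member passed the test over all genes. Each difference below is the knockdown mean less the WT mean of the deposited log2-like values, tested with limma over 13558 genes with Benjamini-Hochberg adjustment and a threshold of 0.05. In this fit 0 of 10 members were called, where 4.1% of all tested genes were, 1.78% as higher and 2.32% as lower in knockdown. At an unadjusted p under 0.05 there were 4 members, MYC, MYCN, MXI1 and MLX, beside 22% of all genes. The same 4 were those whose WT and knockdown libraries did not overlap, beside 27.8% of all genes, with 3 higher and 1 lower in knockdown (14.1% and 13.6% of all genes). In all, 8 members had a higher and 2 a lower mean in knockdown, where 51% of all tested genes were higher, and their median difference was 0.17 against 0.01 over all tested genes. The members were chosen as a pathway with results of these data known, so these counts are a description.

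**Figure D1:**
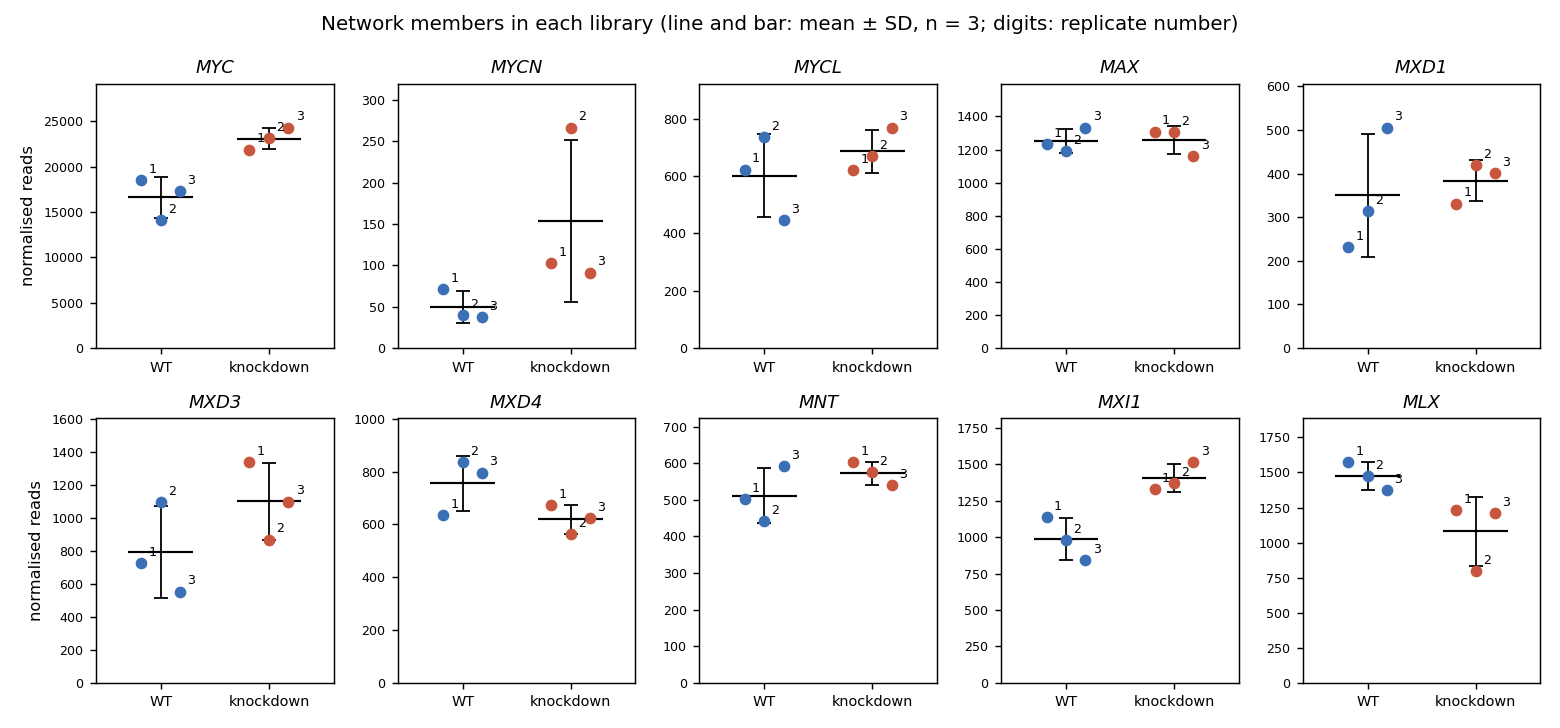
Normalised reads of each of the 10 members (vertical axes, each from 0) in the 3 WT and 3 knockdown libraries, with mean ± SD as line and bar and the replicate number beside each point. MYC, MYCN and MXI1 lie higher and MLX lies lower in every knockdown library than in every WT library, and the other 6 members overlap.

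MYC was by far the most abundant member. MYC (ENSG00000136997, chromosome 8 at 127735434 to 127741434, plus strand, GRCh38) had 18519, 14128 and 17273 normalised reads in WT 1 to 3, in that order, against 21881, 23097 and 24285 in knockdown 1 to 3. Every knockdown library was thus above every WT library, with WT 2 the lowest of the 6. The means were 16640 ± 2263 and 23088 ± 1202 (SD, n = 3 each), a ratio of 1.39, and the difference was 0.48 (SE 0.15, 95% interval 0.15 to 0.80). It did not pass over all genes (limma, adjusted p = 0.0976, range 0.0227 to 0.314 over 17 alternative fits). With library weights, a fit that called 8.95% of all genes, MYC passed at 0.57 (adjusted p = 0.0227), and in each of the other 16 it missed the threshold. Without WT 2 the difference was 0.37 (adjusted p = 0.238), without WT 1 it was 0.56 (adjusted p = 0.0521), and without WT 3, the library that stood apart in the tumour markers, it was 0.51 (adjusted p = 0.103). Between 12648 and 22632 reads lay on MYC in each library, so counting error is small beside the spread between libraries.

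MYCN, the paralog of neural development, was the least abundant member and had the largest difference. MYCN (chromosome 2 at 15940564 to 15947007, plus strand) had 71.7, 40.4 and 37.6 normalised reads in WT 1 to 3, against 103, 267 and 91.2 in knockdown 1 to 3. The groups did not overlap, and knockdown 2 stood far above the other knockdown libraries. The group means were 49.9 ± 19 and 154 ± 98.0 (SD, n = 3 each), a ratio of 3.08, or 1.95 without knockdown 2. On the deposited scale, which understates differences of weak genes, the difference was 0.80 (SE 0.24, limma adjusted p = 0.0926, range 0.0542 to 0.190 over 16 alternatives), and without knockdown 2 it was 0.49 (adjusted p = 0.179). Its 49 to 212 reads per library make it the least precise value here. MYCNOS, the antisense transcript that overlaps the start of MYCN, was too scarce to test, with 0, 5 and 0 reads in WT 1 to 3, against 0, 8 and 7 in knockdown 1 to 3, so that the groups overlapped.

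MYCL, the third MYC paralog, did not separate the groups. Located on chromosome 1 at 39895426 to 39902256, it had 622, 735 and 446 normalised reads in WT 1 to 3, against 621, 670 and 768 in knockdown 1 to 3. WT 3 was the lowest and knockdown 3 the highest, with the other 4 intermixed. The difference was 0.18 (SE 0.16, 95% interval −0.18 to 0.55, limma adjusted p = 0.553), and without WT 3 it was 0.01.

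MAX, the obligate partner of MYC and of the MXD repressors, had nearly equal means in the 2 groups. Located on chromosome 14 at 65006174 to 65102695, it had 1234, 1189 and 1332 normalised reads in WT 1 to 3, against 1308, 1304 and 1159 in knockdown 1 to 3. The groups overlapped, with knockdown 3 the lowest and WT 3 the highest library. The means were 1252 ± 73.0 and 1257 ± 85.1 (SD, n = 3 each). The difference was 0.01 (SE 0.11, limma adjusted p = 0.985), with a 95% interval of −0.24 to 0.25 whose upper end is a level 1.19 times that of WT. Its sign was negative in 7 of 18 alternatives, among them equal medians (−0.01) and the recovered reads (−0.0017).

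Among the repressors MXI1 differed most in proportion to its spread. MXI1, also called MXD2 and located on chromosome 10 at 110207605 to 110287365, had 1136, 978 and 844 normalised reads in WT 1 to 3, against 1327, 1372 and 1512 in knockdown 1 to 3. Every knockdown library was above every WT library, and the closest pair was WT 1 and knockdown 1. The means were 986 ± 146 and 1404 ± 96.6 (SD, n = 3 each), a ratio of 1.42. Its difference of 0.47 (SE 0.13, 95% interval 0.19 to 0.76) had the lowest adjusted p of the members and missed the threshold (limma, adjusted p = 0.0701, range 0.0203 to 0.252 over 17 alternatives). MXI1 passed with library weights (0.52, adjusted p = 0.0203) and without WT 1 (0.57, adjusted p = 0.0347, a fit that called 5.37% of all genes). Without WT 3 its difference was 0.38 (adjusted p = 0.128).

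MXD3, the repressor expressed in proliferating progenitors, had wide spread in both groups. Located on chromosome 5 at 177301461 to 177312757, it had 729, 1097 and 553 normalised reads in WT 1 to 3, against 1338, 869 and 1100 in knockdown 1 to 3. WT 2 lay between knockdown 2 and knockdown 3, so the groups overlapped. The ratio of the means was 1.39 and the difference 0.45 (SE 0.21, limma adjusted p = 0.249, range 0.0920 to 0.566 over 17 alternatives). Leaving out WT 2 gave 0.69 (adjusted p = 0.0920) and leaving out WT 3 gave 0.25 (adjusted p = 0.491). The annotated gene overlaps RAB24 on the same strand and PRELID1 on the other, and how shared reads were counted is not stated in the labels. These neighbours differed by 0.19 and 0.21. The same limit holds for other members whose annotated spans overlap a gene. MAX overlaps FNTB on the other strand over 56479 bases. MXD1 overlaps SNRNP27 on the same strand over 7888 bases, and MLX overlaps PSMC3IP on the other strand over 925 bases.

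MXD4, a repressor of differentiating cells, was the one repressor with a lower mean in knockdown. Its gene lies on chromosome 4 at 2247432 to 2262294, and it had 637, 835 and 797 normalised reads in WT 1 to 3, against 674, 563 and 623 in knockdown 1 to 3. WT 1 lay among the knockdown libraries. The difference was −0.24 (SE 0.13, limma adjusted p = 0.312, range 0.129 to 0.549 over 17 alternatives), and −0.35 without WT 1 (adjusted p = 0.129).

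MXD1, induced when cells stop dividing and differentiate, varied more among WT libraries than between groups. Its gene lies on chromosome 2 at 69897688 to 69942945, and it had 231, 314 and 505 normalised reads in WT 1 to 3, against 331, 420 and 401 in knockdown 1 to 3. The lowest and the highest library were both WT. The difference was 0.15 (SE 0.20, limma adjusted p = 0.715), and it was −0.05 without WT 1 and 0.39 without WT 3.

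MNT, the broadly expressed repressor that pairs with MAX in most cells, lies on chromosome 17 at 2384060 to 2401118 and had 502, 441 and 592 normalised reads in WT 1 to 3, against 602, 575 and 540 in knockdown 1 to 3. The groups overlapped through WT 3. The difference was 0.14 (SE 0.13, 95% interval −0.15 to 0.43, limma adjusted p = 0.565).

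**Figure D2:**
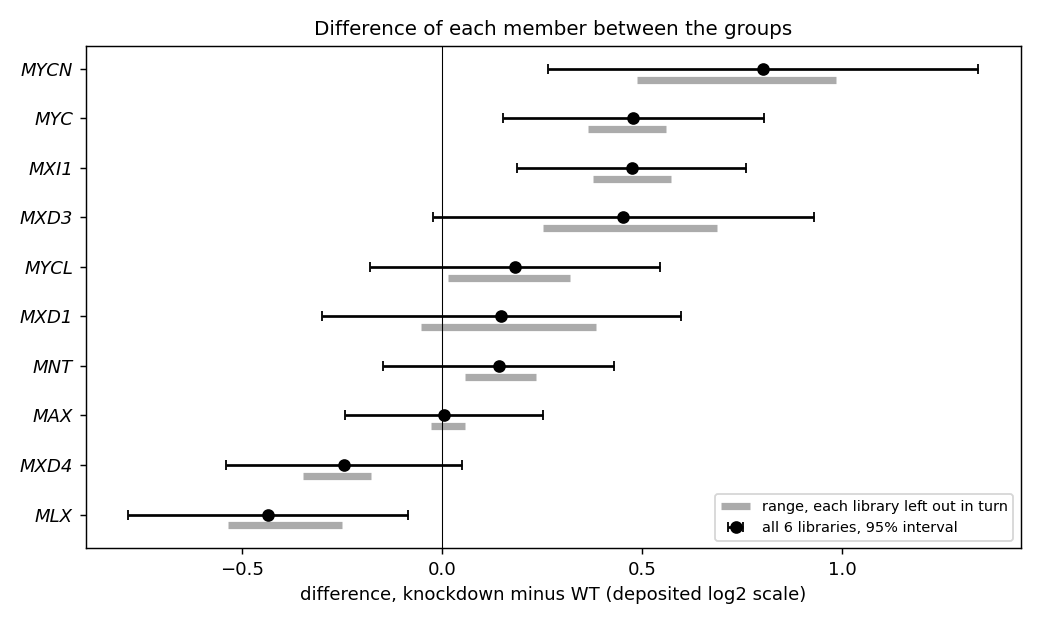
Difference of each member between knockdown and WT on the deposited log2 scale (horizontal axis), with the 95% interval of the fit to 6 libraries (points and thin bars) and the range when each library was left out in turn (grey bars). The intervals of MYCN, MYC, MXI1 and MLX exclude 0 before adjustment, and the grey bars of MAX and MXD1 cross it.

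MLX was the one member lower in every knockdown library. MLX, at 42567068 to 42573239 of chromosome 17 (long arm, plus strand), had 1571, 1473 and 1373 normalised reads in WT 1 to 3, against 1232, 797 and 1208 in knockdown 1 to 3. The groups did not overlap, and knockdown 2 was well below the other knockdown libraries. WT averaged 1472 ± 98.9 and knockdown 1079 ± 244 (SD, n = 3 each), 73.3% of WT. The difference was −0.43 (SE 0.16, limma adjusted p = 0.147, range 0.124 to 0.335 over 17 alternatives), and −0.25 without knockdown 2 (adjusted p = 0.335).

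Most genes around MLX also had lower means in knockdown. Of 57 other tested genes that start within 1 Mb of the start of MLX, 54 were lower in knockdown, 14 passed the test and the median was −0.41. Over the 578 tested genes of the long arm of chromosome 17, MLX among them, the median was −0.33, 514 were lower and 89 passed. Of all tested genes 51% were higher in knockdown and 4.1% passed. MLX lay at percentile 32.2 of the arm. COASY, the coenzyme A synthase gene that ends just before MLX, differed by −0.47 (SE 0.13, limma adjusted p = 0.0646). MNT lies on the short arm of the same chromosome, whose 210 tested genes, with MNT, had a median of 0.01. The part of the chromosome arm in the value of MLX was not tested.

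**Figure D3:**
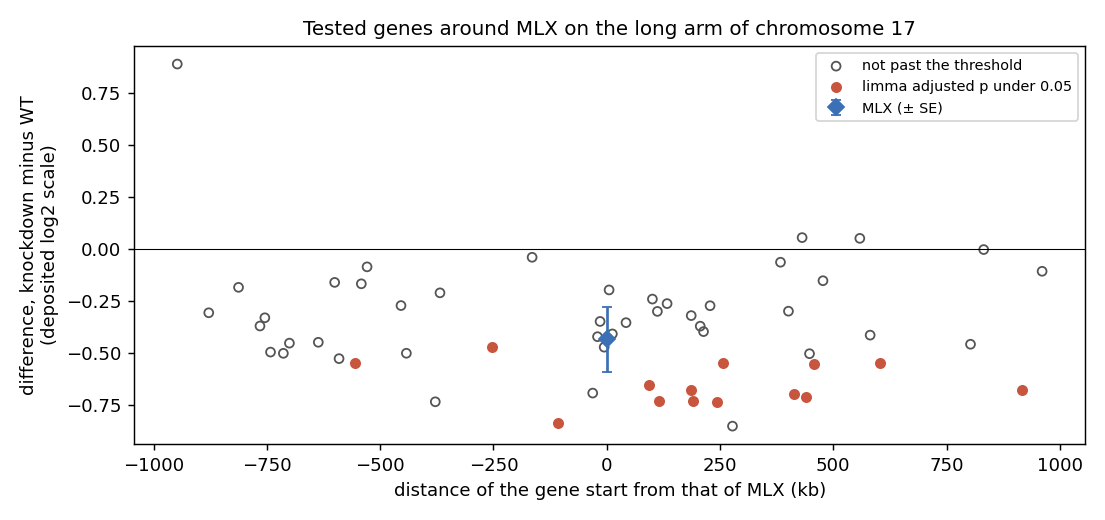
Difference between knockdown and WT on the deposited log2 scale (vertical axis) of the tested genes whose start lies within 1 Mb of that of MLX, against the distance in kb (horizontal axis). MLX (diamond, ± SE) lies amid neighbours of which 54 of 57 are below 0 and 14 passed the test (filled).

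Genes near MYC did not pass the test. Of 15 listed genes near it on chromosome 8, 14 were in the table and 7 were tested. None passed, beside 4.1% of all tested genes (median −0.0029, from −0.29 to 0.15). PVT1, the long noncoding RNA gene next to MYC, was chosen after its values were seen. It averaged 391 ± 116 normalised reads in WT against 411 ± 18.3 in knockdown (SD, n = 3, difference 0.08, SE 0.17). The 480 other tested genes of chromosome 8 had a median of 0.04, and MYC lay at percentile 93.5 among them. MXI1 lay at percentile 93.9 among the 522 others of chromosome 10 (median 0.05), and MYCN at percentile 99.2 among the 879 others of chromosome 2 (median 0.08).

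Levels of different genes were compared as normalised reads per kilobase of merged annotated exon. In WT the level of MYC was 5545 ± 754 (SD, n = 3), followed by MLX at 346 ± 23.2, MAX at 282.5 ± 16.5, MXI1 at 214 ± 31.8, MXD3 at 154 ± 53.9, MYCL at 119 ± 28.8, MXD4 at 107 ± 14.9, MNT at 58.6 ± 8.66, MXD1 at 55.1 ± 22.1 and MYCN at 19.2 ± 7.29. In that order MYC stood above MLX, MLX above MAX, MAX above MXI1, MXD4 above MNT and MXD1 above MYCN without overlap of the WT libraries. MXI1 and MXD3, MXD3 and MYCL, MYCL and MXD4, and MNT and MXD1 overlapped. In knockdown the order of the first places was MYC at 7693 ± 401, MXI1 at 305 ± 21.0, MAX at 284 ± 19.2 and MLX at 253 ± 57.4, the last 3 overlapping from one to the next. MYC ranked between 83 and 141 of 30027 rows with a length in each library, and so was among the most abundant mRNAs of these cells.

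**Figure D4:**
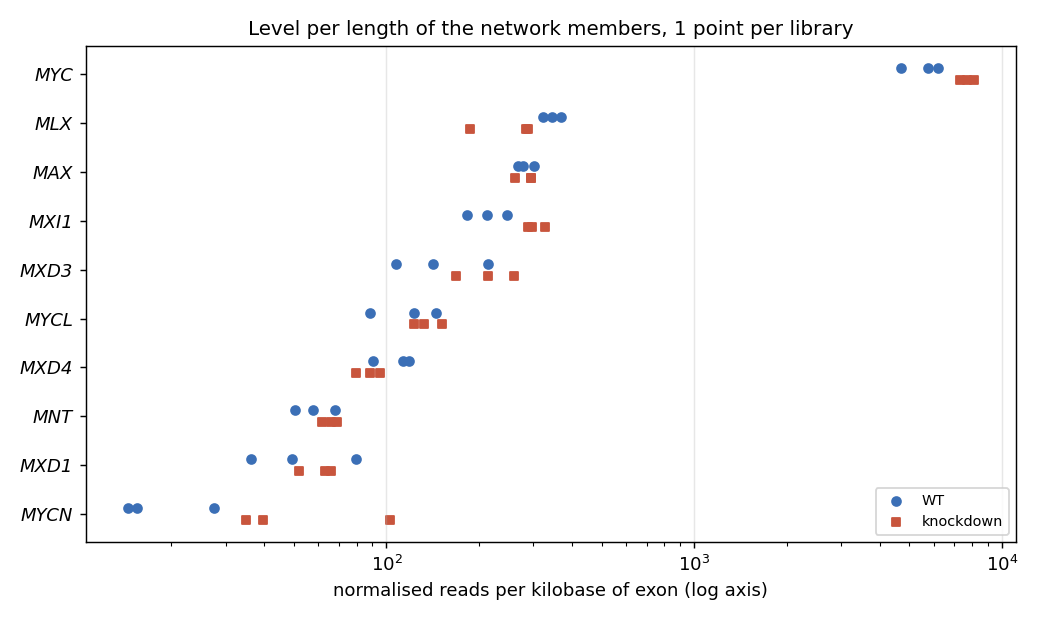
Level of each member in normalised reads per kilobase of exon (horizontal log axis), 1 point per library, WT as circles and knockdown as squares. MYC lies at 4708 to 6171 in WT, over 10 times any other member, and MXI1, MAX and MLX stand in a different order in the 2 groups.

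Because all these factors share MAX, their levels per length were also set against each other, as values with no test. Per library, MYC was 22.1, 17.5 and 19.1 times the level of MAX in WT 1 to 3, against 24.7, 26.1 and 30.9 times in knockdown 1 to 3. The 5 repressors that pair with MAX summed to 572, 644 and 551 per kilobase in WT 1 to 3, against 764, 678 and 755 in knockdown 1 to 3. Both measures were higher in every knockdown library. The share of MYC, MYCN and MYCL in the sum of MYC and repressor levels was 91.7%, 88.3% and 91.4% in WT 1 to 3, against 90.7%, 92.1% and 91.6% in knockdown 1 to 3. The groups overlapped in this share, with means of 90.5% ± 1.87 and 91.5% ± 0.72 (SD, n = 3 each). MYC alone made up 96.7% to 98.2% of the 3 paralogs in each library. These are mRNA levels of bulk samples, in which fewer cells of a type and less RNA per cell cannot be told apart, and protein was not measured.

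The genes whose pattern over the 6 libraries was most like that of MYC were found by the root-mean-square distance between mean-centred deposited values, among 13475 tested genes with a symbol. LBX1-AS1 was closest (distance 0.03), followed by DPCD and SLC29A2, an equilibrative nucleoside transporter (0.05 each), PPIF, the mitochondrial cyclophilin D (0.06), and AP000251.1 (0.06). Likeness here is on the deposited scale, which understates differences of weak genes: LBX1-AS1 averaged 22.8 normalised reads in WT and 51.9 in knockdown and AP000251.1 41.0 and 75.4, larger ratios than that of MYC. These 5 differed by 0.41 to 0.49 between the groups, and none passed the test (limma, adjusted p from 0.0665 to 0.142). LBX1-AS1, DPCD and PPIF lie on chromosome 10. Among the members the nearest to MYC was MXI1, at 0.14. For MYCN, the member with the largest difference, the closest were MAP2, a neuronal microtubule protein (0.10), ARHGAP32 (0.11), EPHB2, an ephrin receptor (0.13), SHISA9 (0.14) and AL596257.1 (0.14). These 5 did not pass the test either (limma, adjusted p from 0.112 to 0.151). MAP2 averaged 22.8 normalised reads in WT and 86.3 in knockdown. The WT means of LBX1-AS1 and MAP2 lay below the filter level of 27.6 normalised reads. Both were therefore compared only because of their knockdown values.

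Factors that read related E-boxes held 3 rises. Of 13 listed bHLH factors outside the network 11 were tested, 3 rose, none fell and the median difference was 0.11, where 1.78% of all tested genes rose and 2.32% fell. This list and those below were chosen with results of these data known, so their counts are descriptions. TFAP4, which binds E-boxes and is itself known as a MYC target, had 1369, 1231 and 1202 normalised reads in WT 1 to 3, against 1835, 1676 and 1869 in knockdown 1 to 3, with no overlap. It rose 1.42-fold (0.47, SE 0.11, limma adjusted p = 0.0455). SREBF1 and SREBF2, which drive fatty acid and sterol synthesis, rose 1.71-fold and 1.54-fold. SREBF1 had 876, 1032 and 933 normalised reads in WT 1 to 3, against 1736, 1324 and 1786 in knockdown 1 to 3 (0.70, SE 0.14, limma adjusted p = 0.0257). The difference of SREBF2 was 0.62 and passed only narrowly (SE 0.15, limma adjusted p = 0.0489).

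The Mondo branch, through which MLX responds to glucose, had no called gene. Its 5 listed genes were all tested, 3 were higher and 2 lower, and the median was 0.04. None had an unadjusted p under 0.05, beside 22% of all genes. TXNIP, a well known Mondo target, averaged 2056 ± 492 normalised reads in WT against 2134 ± 556 in knockdown (SD, n = 3, difference 0.04, SE 0.20). MLXIP, the Mondo protein MondoA, had 1907 ± 395 and 2037 ± 260 (0.10, SE 0.15).

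Among the proteins that MYC recruits, 1 of 19 tested coactivator genes fell and none rose (median −0.06), where 2.32% of all tested genes fell and 1.78% rose. BPTF, the large subunit of the NURF chromatin remodeller, had 6530, 5445 and 5718 normalised reads in WT 1 to 3, against 3411, 3703 and 3856 in knockdown 1 to 3. It fell to 62.0% of WT (−0.67, SE 0.12, limma adjusted p = 0.0168), and it lies on the long arm of chromosome 17, where the median was −0.33. TRRAP, the scaffold of MYC-bound acetyltransferases, averaged 5319 ± 332 and 4164 ± 151 normalised reads in WT and knockdown, without passing (limma, adjusted p = 0.109). None of 18 tested genes of the SIN3 corepressor used by MXD proteins and MNT passed (limma, 3 at an unadjusted p under 0.05 beside 22% of all genes, median −0.06). HDAC2, a histone deacetylase of the complex, differed by 0.12 (SE 0.15). None of 9 tested genes of the polycomb complex that holds MAX and MGA passed either (limma, 1 at an unadjusted p under 0.05 beside 22% of all genes, median −0.01). TFDP1 differed by 0.12 and CBX3 by 0.07.

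Genes that set the life of MYC protein included 1 rise, that of SKP2. SKP2, the F-box protein that ubiquitinates MYC and the CDK inhibitor p27, had 2236, 2485 and 1946 normalised reads in WT 1 to 3, against 3781, 4121 and 3381 in knockdown 1 to 3. The groups lay far apart, and SKP2 rose 1.69-fold (0.73, SE 0.13, limma adjusted p = 0.0165). Of 21 tested genes of this list 1 rose and none fell, beside 1.78% and 2.32% of all tested genes, and the median was −0.05. At an unadjusted p under 0.05 there were 10, of which 4 were higher and 6 lower, beside 22% of all genes. FBXW7, the F-box protein that marks phosphorylated MYC for degradation, had 665, 580 and 695 normalised reads in WT 1 to 3, against 469, 459 and 478 in knockdown 1 to 3, and its difference of −0.39 (SE 0.12) did not pass (adjusted p = 0.0955). GSK3B, a kinase that marks MYC for FBXW7, differed by −0.27 (adjusted p = 0.203) and HUWE1, another ubiquitin ligase of MYC, by −0.37 (adjusted p = 0.146). CIP2A, which shields MYC from phosphatase PP2A, differed by 0.34 (adjusted p = 0.124). FBXW7, GSK3B, HUWE1 and CIP2A were named after their values were seen and do not stand for the list. In the same list the deubiquitinases USP22 and USP36 differed by −0.42 and −0.39 (limma, adjusted p = 0.106 and 0.140). The PP2A subunits PPP2R5A and PPP2R1A differed in opposite directions, by −0.52 and 0.31 (limma, adjusted p = 0.134 and 0.216).

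Of 16 proteins known to bind MYC mRNA none passed (limma, 4 at an unadjusted p under 0.05 beside 22% of all genes, median 0.07). The most abundant, YBX1 and HNRNPK, differed by 0.20 and 0.09. IGF2BP1, which protects the coding region of MYC mRNA from decay, was chosen after its values were seen. It averaged 14324 ± 1894 normalised reads in WT against 10279 ± 540 in knockdown (SD, n = 3, difference −0.47, SE 0.14, limma adjusted p = 0.0853). It too lies on the long arm of chromosome 17.

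Most listed targets of MYC did not pass the test in either direction. Of 68 tested genes that MYC induces, 3 rose and 1 fell, where 4.1% of all tested genes passed, and 14 had an unadjusted p under 0.05, beside 22% of all genes. In knockdown 41 were higher and 27 lower, beside 51% of all genes higher, and the median was 0.03 beside 0.01 over all genes. The rises were those of CDCA7, a chromatin factor (1.67-fold), DCTPP1, a nucleotide pyrophosphatase (1.46-fold), and SHMT2, the mitochondrial serine hydroxymethyltransferase (1.49-fold). POLR1B, a subunit of RNA polymerase I, fell to 69.8% of WT (−0.49, SE 0.12, limma adjusted p = 0.0459). Adjusted p was 0.0168 for CDCA7 and 0.0437 for SHMT2 (limma). DCTPP1 had 1258, 1282 and 1287 normalised reads in WT 1 to 3, against 1955, 1789 and 1828 in knockdown 1 to 3, with little spread in either group (0.51, SE 0.11, limma adjusted p = 0.0310). NCL and ODC1, long-known direct targets chosen after their values were seen, differed by −0.06 (SE 0.24) and 0.22 (SE 0.14). The value of NCL hangs on WT 1. It had 68718, 34416 and 40418 normalised reads in WT 1 to 3, against 41843, 47945 and 42186 in knockdown 1 to 3. Summed reads of the induced list ranged from 371336 to 525383 in WT and from 460645 to 465678 in knockdown. Of 10 tested genes that MYC represses 1 rose and none fell (median 0.12), beside 1.78% and 2.32% of all tested genes. NDRG2, a growth-restraining gene, had 356, 346 and 255 normalised reads in WT 1 to 3, against 502, 643 and 503 in knockdown 1 to 3, and rose 1.72-fold (0.64, SE 0.15, limma adjusted p = 0.0437).

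**Figure D5:**
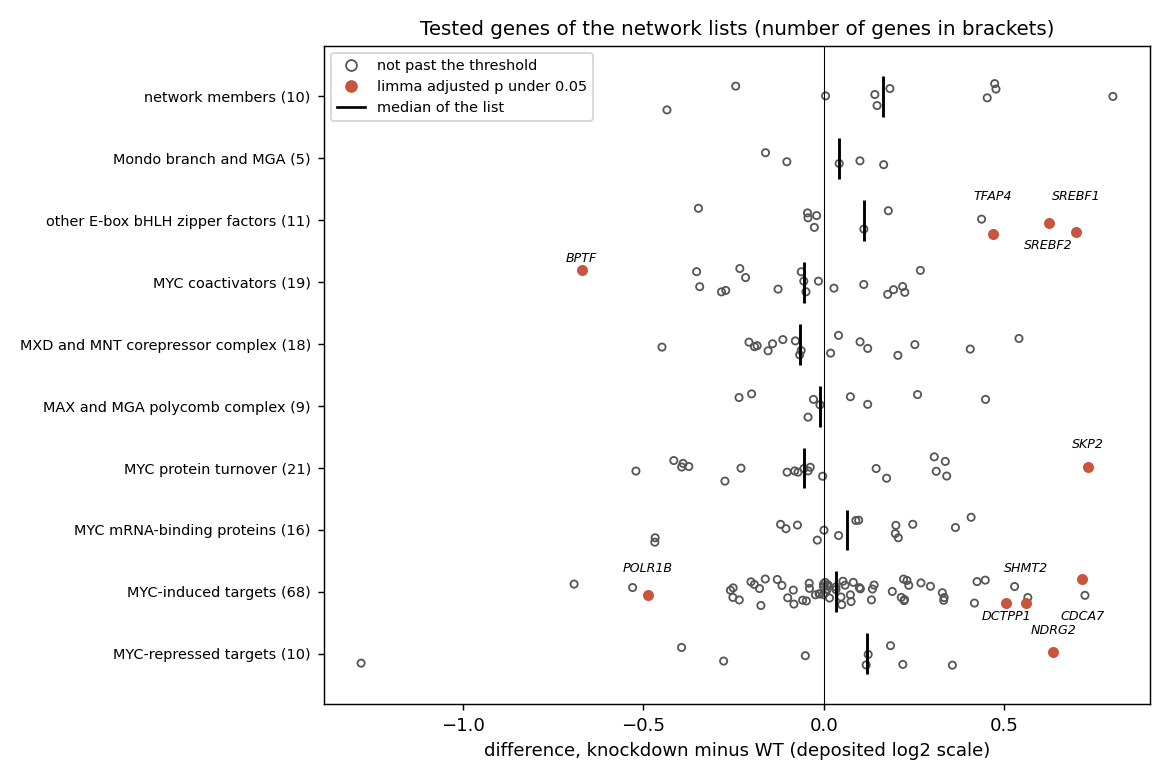
Difference between knockdown and WT on the deposited log2 scale (horizontal axis) of each tested gene of the network and of 9 lists around it, with the number of genes in brackets, the list's median as a bar and genes past the threshold filled. Medians lie between −0.06 and 0.17, and 10 genes outside the network passed.

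Each of the 10 calls in these lists was lost when some single library was left out. All 10 were lost without knockdown 1 (limma, adjusted p from 0.0750 to 0.182) and without knockdown 3 (0.0515 to 0.192), and 9 without knockdown 2 (0.0297 to 0.136), SREBF1 being the one that passed. Leaving out WT 1 lost 3 of them (up to 0.0666), WT 2 lost 6 (up to 0.103) and WT 3 lost 5 (up to 0.0880). Each of the 10 had the same direction in all 18 alternatives.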

How the data were processed

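RNA sequencing of 6 D283 Med libraries, 3 WT and 3 labelled knockdown, was used. The submitters' processing notes name GRCh38 and, as tools, STAR, DESeq, Trim Galore, CASAVA 1.8.2, MultiQC and FastQC. Read counter, annotation, filters and strand setting: not given in the sources used here. The values the authors deposited are log2-like. Their form, and the table's name, are those of a variance-stabilising transformation after scaling by size factors.

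Inverting that function (offset 55.2, from the lowest value of 5.79) gave normalised reads, and 100% of values became whole reads within 0.01 after 1 scale factor per library. A fold is a ratio of group means of normalised reads. The 13558 genes whose mean exceeded the lowest value by 1 or more (27.6 normalised reads) were tested and 18227 were not. Tests used R 4.3.3 and limma 3.58.1 (empirical Bayes with trend, two-sided, no covariate). An exact permutation test of 3 against 3 cannot go below 0.1. Alternatives are given in the closing section. Exon lengths and coordinates are from GENCODE 29, matched by name for 30027 rows, promoters from RefSeq.

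The members and lists were chosen with earlier results of these data known. Named are all members, MSI1, called genes of each list (at most 4), the 2 most abundant genes of lists without a call (1 is not reported here), and the 5 genes most alike MYC and the member with the largest difference. PVT1, TRRAP, FBXW7, GSK3B, HUWE1, CIP2A, USP22, USP36, PPP2R5A, PPP2R1A, IGF2BP1, COASY, NCL and ODC1 were named after their values were seen.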

Additional observations from a re-analysis of the deposited data

How the results depend on the processing

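The count of called members was 0 in the reported fit, 2 with library weights (MYC at 0.57 and MXI1 at 0.52), 1 without WT 1 (MXI1 at 0.57) and 0 in the other alternatives, so that leaving out 1 library gave 0 to 1. Alternatives were no or a stricter filter, quantile scaling, equal medians, other variance models, library weights, a replicate block, voom on recovered reads, pseudocounts of 1 and 10, a minimum difference of 0.5, and each library left out. MYCN had no value under the stricter filter, and ranges of adjusted p leave out the minimum difference, which tests another question. Of 179 values of members under alternatives 8 changed sign. For MAX these were −0.0099 with equal medians, −0.016 with library weights, −0.0017 with voom, −0.0033 without WT 1, −0.028 without WT 2, −0.022 without knockdown 1 and −0.020 without knockdown 2, and for MXD1 −0.053 without WT 1. Leaving out 1 library at a time gave −0.028 to 0.058 for MAX and −0.053 to 0.39 for MXD1. The scale moved MYCN from 0.80 to 1.53 with voom and 1.49 with a pseudocount of 1.

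Over all genes 556 were called, against 1213 with library weights, 221 with the replicate block, 1 with a minimum difference of 0.5, and 56 to 728 with 1 library left out. Without WT 2 there were 202, and without knockdown 1, 2 or 3 there were 56, 125 and 91. Same-numbered libraries did not deviate together (correlations across genes of −0.0045, −0.25 and 0.0046), so the numbers were not taken as pairs. With the replicate block MYC had an adjusted p of 0.199 and MXI1 of 0.127 (limma), and 8 of the 10 calls in the lists around the network were lost. The share of the 3 MYC paralogs was 90.5% in WT and 91.5% in knockdown, 87.9% and 89.2% with the longest transcript as length (WT and knockdown), and 83.4% and 85.4% with no length scaling. With 49 to 212 reads, MYCN is the member whose precision depth limits most.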
